A study of Mus musculus with 16 samples.

Results

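Group 2 innate lymphoid cells (ILC2) of the duodenum were compared between mice lacking Alox5 and mice lacking Il25. The comparison used the 4 libraries titled Alox5 KO and the 4 titled Il25 KO, chosen by title, out of 16 libraries in the series. The Alox5 KO mice were Alox5 (-/-) with Il13 smart13/smart13. The Il25 KO mice were Il25 (-/-) with Arg1 Yarg/Yarg and Il13 smart13/smart13, so they carried a reporter at Arg1 that the Alox5 KO mice did not. A reporter at Il13 was shared by every group. The levels of the 4 WT libraries (Il13 smart13/smart13) and the 4 St2 KO libraries (St2 (-/-), Arg1 Yarg/Yarg, Il13 smart13/smart13) are given beside them. All mice were C57BL/6, 6 to 10 weeks old, untreated and kept free of specific pathogens, and cells came from the first 5 cm of the small intestine. Both deletions are given without a cell type or promoter, and the gene of IL-25 is known to be expressed outside ILC2, so the Il25 KO libraries hold ILC2 that developed in a tissue without this signal. Sample codes put the libraries into 3 sets. Replicates 1 and 2 of each genotype carried TS, while for replicates 3 and 4 the code was TT in WT and Alox5 KO but TY in Il25 KO and St2 KO. Only TS held both genotypes compared here. The series' title names leukotrienes, IL-25 and IL-33 as signals that act on intestinal ILC2 at rest, and this comparison sets the loss of the first against the loss of the second.

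Alox5 encodes 5-lipoxygenase, which with its partner protein encoded by Alox5ap turns arachidonic acid into leukotriene A4, the precursor of leukotriene B4 and of the cysteinyl leukotrienes that act through CysLT1R and CysLT2R. IL-25 is made by epithelial tuft cells and acts through the receptor chains encoded by Il17rb and Il17ra, and TRAF adaptor proteins carry its signal to NF-kB. ILC2 are tissue lymphocytes defined by the transcription factor GATA3 that make IL-5 and IL-13, and both leukotrienes and IL-25 can activate them.

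Total gene counts in the 8 libraries ran from 2086864 to 2783653 with a median of 2554585.5, and 15490 to 16478 genes were detected per library. Over all genes tested, the SE of the log2 fold change had a median of 0.269 and its 95% interval a median half-width of 0.566. Both come from the model over 16 libraries described below. The intervals are not adjusted for the number of genes tested, so a call needed a larger difference at the same SE. ILC2 genes were high in every library of both genotypes: Gata3 was at 523 to 619.6 CPM (counts scaled to library depth) in Alox5 KO and 576 to 698 CPM in Il25 KO, Il7r at 1126 to 1567 and 1105 to 1342 CPM, and Il17rb at 879.9 to 987 and 902 to 1067 CPM. The TY libraries had 982 to 1682 counts of the X-inactivation RNA Xist and the other 12 at most 7, so Il25 KO replicates 3 and 4 were female and the 4 Alox5 KO libraries male by this measure. No gene on the X or Y chromosome was called. In the model used below the term for set TY coincided with sex, so an effect of sex was not tested.

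Among 11742 genes tested, 46 (0.392%) differed between the genotypes at an adjusted p under 0.05 (edgeR quasi-likelihood test with Benjamini-Hochberg adjustment, genotype and sample-code set as terms over 16 libraries). Of these, 26 (0.221%) were higher in Alox5 KO and 20 (0.170%) were higher in Il25 KO. Positive log2 fold changes below are higher in Alox5 KO. The difference exceeded 2-fold for 32 of the 46 genes and 4-fold for 24. The 4 Alox5 KO and the 4 Il25 KO libraries did not overlap for 44 of the 46, the exceptions being Fst and Gimap4, whereas 654 of all genes tested (5.57%) did not overlap. The 46 were called on these same values, so the larger share among them is no separate support. At an unadjusted p under 0.05, 1100 genes (9.37%) differed. The median log2 fold change over all genes tested was -0.0072. Within TS alone, all 46 genes kept their sign, as did 85% of all genes tested, and their 2 against 2 libraries did not overlap, as for 34.8% of all genes tested. These TS libraries also entered the fit that called the genes, and an exact permutation test of 2 against 2 cannot give a p under 0.333. A fit on the 8 TS libraries called 12 genes, of which 10 were among the 46, and DESeq2 called 105, of which 45 were among the 46.

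The number of calls depended on single libraries more than on scaling. Without Alox5 KO replicate 1 the fit called 19 genes, without Alox5 KO replicate 2 it called 32, and without Il25 KO replicate 1 it called 34. Of the 46 genes, 15 were called in each of the 16 fits that left out 1 library: Arg1, Alox5, Lgals3, Rpl26, Trdv4, Pecam1, Gm3375, Gm43305, Gm26782, Alpk3, Wnt5b, Rnpep, Tmem87a, AA467197 and Cd44. Alox5 KO replicates 1 and 2 and St2 KO replicate 1 were low in plasma cell transcripts, with summed B and plasma cell marker levels of 1081, 1239 and 1132 CPM, against 2382 to 3613 CPM in the other 13 libraries. Without those 3 libraries, Arg1 and Rpl26 were the 2 genes called, and no Alox5 KO library was left in TS. The 46 log2 fold changes in that fit were all of the same sign and a median of 0.999 times those with all libraries, from 0.409 times (Gm15772) to 1.85 times (Gm3375).

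**Figure D1:**
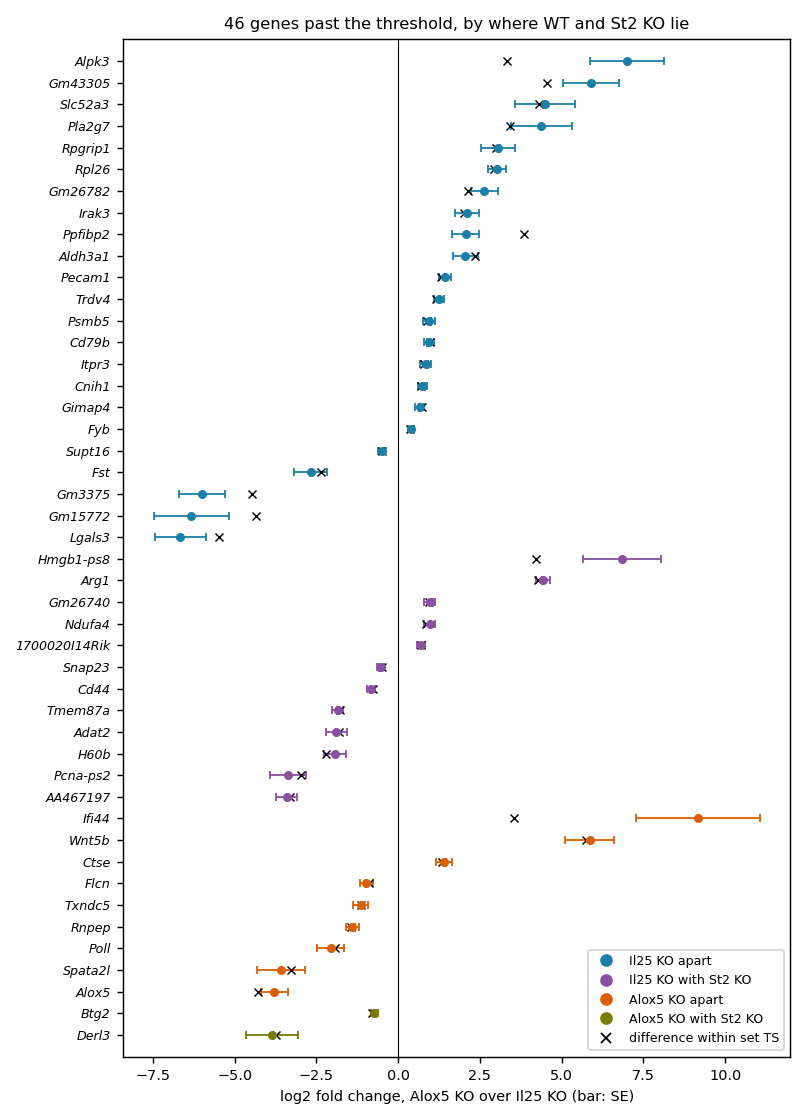
Log2 fold change of the 46 called genes, Alox5 KO over Il25 KO, as points with SE bars, coloured by whether the mean of WT and of St2 KO lay nearer to Alox5 KO or to Il25 KO. The means used for the colours were not adjusted for set. "Apart" marks genes for which WT and St2 KO both lay nearer to the other genotype, and black crosses give the difference of mean log2 CPM within set TS. All crosses lie on the same side of 0 as their points.

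Engineered genes served as a check of the labels. Alox5, at chr6:116410077-116461178 on the minus strand of GRCm38, had 4.74, 12.2, 11 and 11.9 CPM in Alox5 KO replicates 1 to 4 and 145, 186, 108 and 60.2 CPM in Il25 KO replicates 1 to 4. Every Alox5 KO library was below every Il25 KO library, and the Il25 KO range held the whole WT range of 75.9 to 146 CPM. Alox5 thus had a log2 fold change of -3.79 ± 0.42 (SE, edgeR adjusted p = 5.98e-05), with 12 to 31 Alox5 counts remaining in each Alox5 KO library. The sources used here do not say which exons the allele removes. Il25, at chr14:54932695-54935837, had 0 counts in all 16 libraries, so its deletion could not be checked in these cells.

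Arg1 encodes arginase 1, which splits arginine into ornithine and urea and is a marker of ILC2. Arg1 (chr10:24915221-24927484, minus strand) stood at 452, 364, 359.7 and 374 CPM in Alox5 KO and at 24.5, 16.5, 21.6 and 23.2 CPM in Il25 KO. The 2 groups were far apart, WT lay with Alox5 KO at 310.3 to 389 CPM, and St2 KO lay with Il25 KO at 12.5 to 31 CPM. Arg1 had a log2 fold change of 4.43 ± 0.20 (SE, edgeR adjusted p = 1.70e-10). The low groups are the 2 that carry the Yarg allele, so the loss of IL-25 and the allele cannot be told apart for Arg1 in this comparison. Il13, which carries the same reporter in both groups, had 8 to 28 counts in Alox5 KO and 7 to 22 in Il25 KO libraries, with a log2 fold change of 0.83 (95% interval -0.55 to 2.21).

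**Figure D2:**
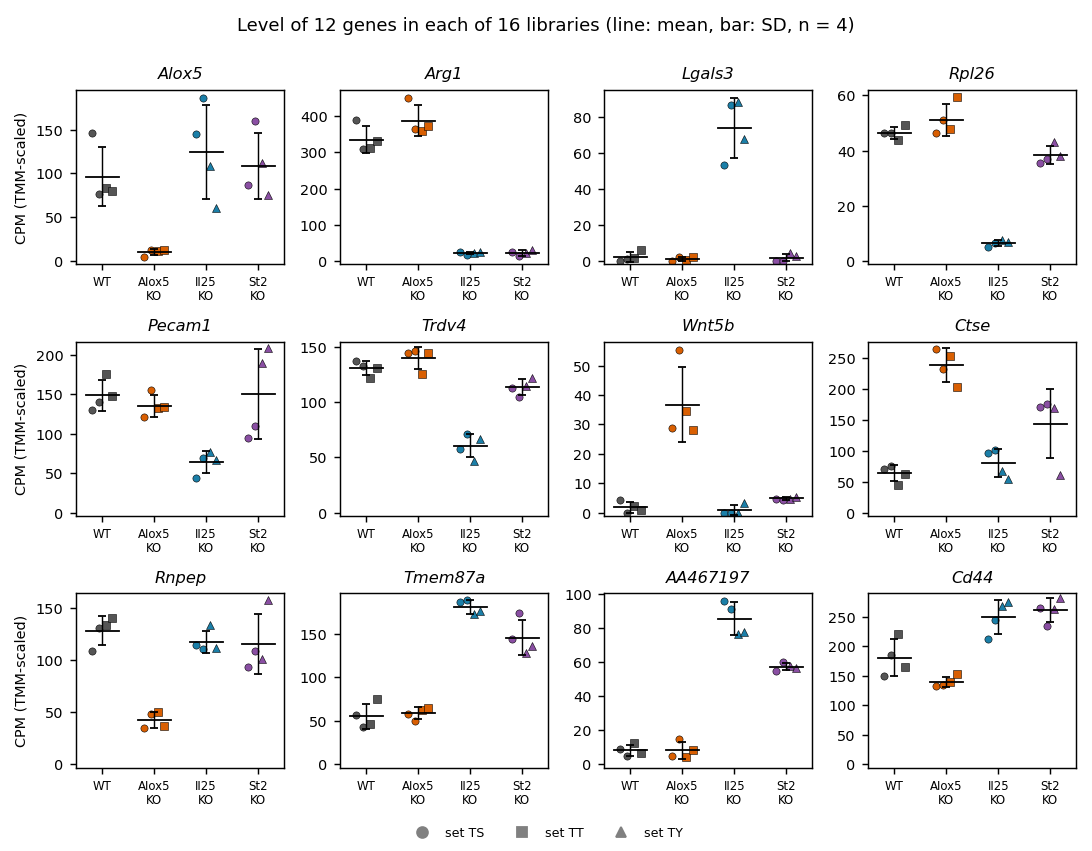
TMM-scaled CPM of 12 called genes in each of the 16 libraries, with the mean as a line and the SD as a bar (n = 4), and the sample-code set as the marker shape. The Il25 KO libraries stand apart for Lgals3, Rpl26, Trdv4 and Pecam1 and the Alox5 KO libraries for Alox5, Wnt5b, Ctse and Rnpep. Il25 KO and St2 KO lie together for Arg1, and both lie above WT and Alox5 KO for Tmem87a and AA467197. For AA467197 all St2 KO libraries lie below all Il25 KO libraries.

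For each called gene the mean log2 CPM of WT and of St2 KO was placed nearer to Alox5 KO or to Il25 KO, as a description with no test. These means ran over all 4 libraries of a group and were not adjusted for set. WT shared sets TS and TT with Alox5 KO, and St2 KO shared TS and TY with Il25 KO. Set and sex therefore enter this placing together with genotype, and their part in it was not tested. WT and St2 KO both lay nearer to Alox5 KO for 23 genes, against 29% of all genes tested. WT lay nearer to Alox5 KO and St2 KO nearer to Il25 KO for 12 genes, against 23.9%. Both lay nearer to Il25 KO for 9 genes, against 34.3%, and the remaining 2, Btg2 and Derl3, had WT nearer to Il25 KO and St2 KO nearer to Alox5 KO, against 12.7%. The comparisons with WT share its libraries and the libraries of this comparison, so their values are set side by side and not as separate evidence. Against WT, the same model called 12 genes (0.102%) in Alox5 KO and 49 (0.417%) in Il25 KO.

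In the group of 23 genes, WT and St2 KO lay nearer to Alox5 KO, and the 4 Il25 KO libraries lay apart from all 12 other libraries for 19 of the 23, which 71 of all genes tested (0.605%) did. These genes were called and grouped by the same values, so the larger share follows largely from the selection and is no separate support. Lgals3 encodes galectin-3, a sugar-binding lectin abundant in macrophages and epithelium. Lgals3 (chr14:47367751-47386160, plus strand) was at 0, 2.36, 0.393 and 1.98 CPM in Alox5 KO and 53.4, 86.8, 88.6 and 67.8 CPM in Il25 KO. It was present in all 4 Il25 KO libraries and at or near 0 in the Alox5 KO, WT (0 to 6.11 CPM) and St2 KO (0 to 4.41 CPM) libraries. The log2 fold change was -6.66 ± 0.77 (SE, edgeR adjusted p = 7.64e-06), and it ran from -8.71 to -6.05 over the fits that left out 1 library. All 24 listed macrophage and dendritic markers, Lgals3 and Pla2g7 included, summed to 62.5 to 125 CPM in Alox5 KO and 115 to 225 CPM in Il25 KO. With Lgals3 and Pla2g7 left out, the other markers abundant enough to test summed to 14.3 to 50.3 CPM in Alox5 KO and 21.3 to 121 CPM in Il25 KO. Markers too low to test are not in these last sums. The defining marker C1qa had 2 and 4 counts over the 4 libraries of each genotype. The part of these markers in the level of Lgals3 was not tested.

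Rpl26, a protein of the large ribosomal subunit, was the opposite case. Rpl26 (chr11:68901583-68906989, plus strand) was at 46.2, 51.1, 48 and 59.3 CPM in Alox5 KO and 5.05, 6.53, 7.63 and 6.89 CPM in Il25 KO, with WT at 43.7 to 49.3 and St2 KO at 35.3 to 43 CPM. The 4 Il25 KO libraries were thus low against all 12 others, and the log2 fold change was 3.03 ± 0.27 (SE, edgeR adjusted p = 5.27e-06). It was the only one of 56 cytosolic ribosomal protein genes tested that was called, and the median of these 56 was 0.11. Ribosomal protein genes have many near-identical pseudogene copies, among which reads can be split.

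Pecam1 encodes CD31, an adhesion molecule of endothelial cells and of some leukocytes. Its level was 122, 155, 132 and 134 CPM in Alox5 KO and 44.4, 68.8, 77.1 and 66.3 CPM in Il25 KO. All Il25 KO libraries were below all Alox5 KO libraries, and the log2 fold change was 1.43 ± 0.19 (SE, edgeR adjusted p = 0.000819). The endothelial gene Cdh5 had 0 counts in all 16 libraries. Stromal and endothelial markers abundant enough to test, other than Pecam1, summed to 196 to 300.0 CPM in Alox5 KO and 194 to 293 CPM in Il25 KO. Irak3, which encodes an inhibitor of signalling from Toll-like and IL-1 family receptors, was at 116, 169, 90.4 and 159.7 CPM in Alox5 KO and 26, 45, 42.4 and 69.2 CPM in Il25 KO, without overlap. Its log2 fold change was 2.12 ± 0.37 (SE, edgeR adjusted p = 0.00988), and the call was lost without Alox5 KO replicate 2 or Il25 KO replicate 1, with an adjusted p of up to 0.0696. Cd79b, the signalling chain of the B cell receptor, was at 158, 152, 156 and 172 CPM in Alox5 KO and 67.1, 93.8, 120.3 and 103 CPM in Il25 KO. Its log2 fold change was 0.94 ± 0.16 (SE, edgeR adjusted p = 0.00797). The call of Cd79b was lost without Alox5 KO replicate 1 or Il25 KO replicate 1, with an adjusted p of up to 0.064.

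The rest of the genes low in Il25 KO were of mixed function. Pla2g7, which encodes a phospholipase that degrades platelet-activating factor, was at 19.8, 69.6, 33 and 46.5 CPM in Alox5 KO and 1.44, 4.99, 0 and 5.80 CPM in Il25 KO (log2 fold change 4.37 ± 0.93, edgeR adjusted p = 0.0382). The spread within each group was wide, but the groups did not overlap. Slc52a3, a riboflavin transporter, was at 29.2, 44, 33 and 11.4 CPM in Alox5 KO and 0, 3.84, 0 and 0 CPM in Il25 KO. Its log2 fold change was 4.50 with all libraries and 8.67 without Il25 KO replicate 2, the one Il25 KO library with a count. Aldh3a1, an aldehyde dehydrogenase, was at 46.2, 38.9, 16.1 and 18.3 CPM in Alox5 KO and 5.41, 10.8, 8.90 and 12 CPM in Il25 KO (log2 fold change 2.05 ± 0.38, edgeR adjusted p = 0.0182). Ppfibp2, a liprin family scaffold, was at 36.8, 43.6, 50.3 and 48.5 CPM in Alox5 KO and 10.1, 0, 30.1 and 22.1 CPM in Il25 KO, so that its Il25 KO libraries were all lower and varied widely among themselves. Itpr3, a calcium channel of the endoplasmic reticulum, was at 91.7 to 119 CPM in Alox5 KO and 54.8 to 80.1 CPM in Il25 KO. Fyb, an adaptor of lymphocyte receptor signalling, differed least of all called genes, with 431 to 495 against 346 to 357 CPM and a log2 fold change of 0.40 ± 0.085. Gimap4, a GTPase of lymphocytes, overlapped between groups at 298 to 355 and 183 to 299 CPM. These calls were less stable. Leaving out 1 library at a time removed Fyb in 14 of 16 fits, Ppfibp2 in 12, Pla2g7 in 11, Gimap4 in 11, Slc52a3 in 6, Aldh3a1 in 3 and Itpr3 in 3, with adjusted p-values of up to 0.212, 0.125, 0.178, 0.257, 0.115, 0.16 and 0.117. The fits without Alox5 KO replicate 1, without Alox5 KO replicate 2 and without Il25 KO replicate 1 were among them for all 7.

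Several genes of the group were all but absent from one genotype. Alpk3, a kinase known from heart and skeletal muscle, had 99 counts over the 4 Alox5 KO libraries and 1 count over the 4 Il25 KO libraries, a depth-adjusted ratio of 108 (95% counting interval 18.9 to 4299). The processed pseudogene Gm15772 ran the other way, with 2 counts in Alox5 KO and 158 in Il25 KO, which was 72.6 (95% counting interval 19.8 to 604) times as much at equal depth. Another processed pseudogene, Gm3375 (chr7:3181093-3181888), was at 0.395, 1.57, 0.393 and 0.495 CPM in Alox5 KO and 34.3, 36.5, 35.6 and 30.8 CPM in Il25 KO. These intervals cover counting error only. Pseudogene copies differ little from their parent genes, so which copy the reads came from is uncertain. The call of Gm15772 was lost without Alox5 KO replicate 1, Alox5 KO replicate 2 or Il25 KO replicate 2, with an adjusted p of up to 0.193. Fst encodes follistatin, a secreted binder of activins. It was lower in Alox5 KO at 3.16, 7.08, 15.7 and 8.41 CPM against 31.7, 24.6, 20.8 and 13.1 CPM (log2 fold change -2.68 ± 0.51, edgeR adjusted p = 0.0182), the groups overlapped, and the call was lost without Alox5 KO replicate 1 or Il25 KO replicate 1, with an adjusted p of up to 0.16.

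In the group of 12 genes, WT lay nearer to Alox5 KO and St2 KO nearer to Il25 KO. The 8 Il25 KO and St2 KO libraries lay apart from the 8 WT and Alox5 KO libraries for 11 of the 12, which 40 of all genes tested (0.341%) did. This larger share too follows largely from how the genes were selected. Arg1 belongs here. Tmem87a, a multipass membrane protein of the Golgi, was at 58.1, 49.5, 62.9 and 64.8 CPM in Alox5 KO and 187, 189, 172 and 176 CPM in Il25 KO, with WT at 42.8 to 74.9 and St2 KO at 128 to 174 CPM. The 4 Il25 KO libraries lay close together and well above, and the log2 fold change was -1.85 ± 0.17 (SE, edgeR adjusted p = 5.27e-06). AA467197, whose transcript is the host of a microRNA and codes for a small protein of the NDUFA4 family, was at 5.14, 14.9, 4.32 and 8.41 CPM in Alox5 KO and 95.9, 91.4, 76.7 and 77.9 CPM in Il25 KO. St2 KO lay between at 54.9 to 60.3 CPM and WT lay low at 5.01 to 12.3 CPM. The log2 fold change was -3.41 ± 0.32 (SE, edgeR adjusted p = 7.64e-06). Ndufa4 itself, a subunit of respiratory complex IV, was higher in Alox5 KO, at 137, 132, 126 and 193 CPM against 80.8, 68.4, 83.5 and 70.3 CPM. Its log2 fold change was 0.96 ± 0.17 (SE, edgeR adjusted p = 0.00934), the call was lost without Alox5 KO replicate 1 or Il25 KO replicate 2 (adjusted p of up to 0.057), and Ndufa4 lies on chromosome 6 and AA467197 on chromosome 2.

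CD44 is a hyaluronan receptor that rises on activated and tissue-resident lymphocytes. Cd44 was at 133, 134, 139 and 153 CPM in Alox5 KO and 212, 244, 269 and 276 CPM in Il25 KO. WT lay between at 149 to 222 CPM, overlapping the Il25 KO range, and St2 KO was at 235 to 282 CPM. The log2 fold change was -0.83 ± 0.13 (SE, edgeR adjusted p = 0.00424), and it ran from -0.92 to -0.78 over the fits that left out 1 library. Neither genotype was called against WT for this gene: Alox5 KO had a log2 fold change of -0.37 (adjusted p = 0.388) and Il25 KO of 0.45 (adjusted p = 0.201). Snap23, a SNARE protein of membrane fusion and secretion, was at 181, 184, 148 and 164 CPM in Alox5 KO and 232.6, 286, 242 and 232.8 CPM in Il25 KO (log2 fold change -0.54 ± 0.12, edgeR adjusted p = 0.0467), and its call was lost in each of the 16 fits that left out 1 library. H60b, a ligand of the activating receptor NKG2D, was at 11.5, 10.6, 24.4 and 18.3 CPM in Alox5 KO and 42.6, 67.2, 59.3 and 55.8 CPM in Il25 KO. Its groups did not overlap, and the log2 fold change was -1.93 ± 0.33 (SE, edgeR adjusted p = 0.00764). Adat2, a subunit of a tRNA adenosine deaminase, was at 17.8, 11.8, 8.65 and 24.2 CPM in Alox5 KO and 50.1, 55.7, 53 and 47.9 CPM in Il25 KO, also without overlap (log2 fold change -1.89 ± 0.32, edgeR adjusted p = 0.00764). The calls of H60b and Adat2 were lost without Alox5 KO replicate 2, and that of H60b also without Alox5 KO replicate 1, with adjusted p-values of up to 0.0785 and 0.0759. The other 4 members were Gm26740, 1700020I14Rik, Hmgb1-ps8 and Pcna-ps2, which are non-coding or close copies of other genes.

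In the group of 9 genes, WT and St2 KO lay nearer to Il25 KO, and the 4 Alox5 KO libraries lay apart from all 12 others for 7 of the 9, which 58 of all genes tested (0.494%) did. Here as well the larger share follows largely from how the genes were selected. Alox5 is 1 of the 9. Wnt5b encodes a secreted WNT ligand of the non-canonical pathway. Wnt5b (chr6:119432531-119544347, minus strand) was at 28.9, 55.4, 34.6 and 28.2 CPM in Alox5 KO and 0, 0, 0 and 3.26 CPM in Il25 KO, with WT at 0 to 4.28 and St2 KO at 4.26 to 5.45 CPM. It was thus present in the 4 Alox5 KO libraries and at most 5.45 CPM in the other 12. Its log2 fold change was 5.86 ± 0.76 (SE, edgeR adjusted p = 5.82e-05), and 9.86 without Il25 KO replicate 4, the one Il25 KO library with a count.

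Ctse encodes cathepsin E, an aspartic protease of the endosomes of immune and gastric cells. It was at 265, 232, 252 and 203 CPM in Alox5 KO and 96.3, 101, 66.5 and 54.4 CPM in Il25 KO. WT lay with Il25 KO at 45.2 to 75.9 CPM, and 3 of the 4 St2 KO libraries lay above that, with a St2 KO range of 60 to 175 CPM and an edgeR log2 fold change of St2 KO over WT of 1.36 (adjusted p = 0.0208). For Ctse the log2 fold change was 1.41 ± 0.25 (SE, edgeR adjusted p = 0.00884), and the call was lost without Alox5 KO replicate 1 or Il25 KO replicate 1, with an adjusted p of up to 0.0686. Rnpep encodes aminopeptidase B, a relative of the leukotriene A4 hydrolase encoded by Lta4h. It was at 34.8, 48.4, 50.3 and 37.1 CPM in Alox5 KO and 114, 110.3, 133 and 111 CPM in Il25 KO, with WT at 109 to 140.5 and St2 KO at 93.2 to 158 CPM. All Alox5 KO libraries were below all others, with a log2 fold change of -1.40 ± 0.21 (SE, edgeR adjusted p = 0.00215). For Lta4h itself the log2 fold change was 0.00 (95% interval -0.20 to 0.20).

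The other 5 genes of this group were nearer the threshold. Spata2l, a relative of the deubiquitinase adaptor SPATA2, was at 0, 0.786, 1.97 and 0.989 CPM in Alox5 KO and 10.5, 9.22, 5.51 and 10.2 CPM in Il25 KO (log2 fold change -3.60 ± 0.73, edgeR adjusted p = 0.0203). Poll, DNA polymerase lambda, was at 5.93, 6.29, 16.5 and 7.91 CPM in Alox5 KO and 27.8, 23.4, 30.5 and 41.7 CPM in Il25 KO (log2 fold change -2.06 ± 0.41, edgeR adjusted p = 0.029). Both were low in Alox5 KO and neither overlapped. Flcn, the folliculin tumour suppressor of nutrient sensing, was at 36.6 to 56.2 CPM in Alox5 KO and 69.9 to 113 CPM in Il25 KO (log2 fold change -0.98 ± 0.20, edgeR adjusted p = 0.0382). Ifi44, an interferon-induced gene, had 100 counts over the 4 Alox5 KO libraries and 3 over the 4 Il25 KO libraries, a depth-adjusted ratio of 36.3 (95% counting interval 12.1 to 179). Its level was 12.6, 5.11, 17.7 and 4.95 CPM in Alox5 KO and 0, 0, 1.27 and 0 CPM in Il25 KO, with WT at 0 to 4.07 CPM. Txndc5, a disulphide isomerase of the secretory pathway that is abundant in plasma cells, was at 92.5, 85.3, 125 and 75.2 CPM in Alox5 KO and 189, 200.2, 279.7 and 149 CPM in Il25 KO (log2 fold change -1.15 ± 0.24, edgeR adjusted p = 0.0377). Leaving out 1 library at a time removed Flcn in 13 of 16 fits, Ifi44 in 10, Txndc5 in 10, Poll in 6 and Spata2l in 5. The highest adjusted p-values were 0.169, 0.273, 0.168, 0.16 and 0.139, and the fits without Alox5 KO replicate 1 and without Il25 KO replicate 1 were among them for all 5.

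For Btg2 and Derl3, WT lay nearer to Il25 KO and St2 KO nearer to Alox5 KO. Btg2, an antiproliferative gene induced early after stimulation, was at 474, 537, 504 and 558 CPM in Alox5 KO and 807, 969.8, 929 and 742 CPM in Il25 KO, with WT at 684 to 900.2 and St2 KO at 443 to 519.7 CPM. The log2 fold change was -0.73 ± 0.12 (SE, edgeR adjusted p = 0.00751), and the call was lost without Alox5 KO replicate 1 (adjusted p of 0.0723). Derl3, a protein of endoplasmic reticulum quality control that is high in plasma cells, was at 0, 3.93, 1.97 and 2.97 CPM in Alox5 KO and 23.4, 25, 29.2 and 27.2 CPM in Il25 KO, with WT at 15.6 to 59 and St2 KO at 0 to 16.7 CPM (log2 fold change -3.86 ± 0.79, edgeR adjusted p = 0.0277). Its call was lost in 7 of the 16 fits that left out 1 library, with an adjusted p of up to 0.146. Other plasma cell transcripts are given beside Derl3 and Txndc5. Mzb1 was at 0, 0, 14.2 and 13.4 CPM in Alox5 KO and 94.5, 22.7, 64.4 and 30.1 CPM in Il25 KO, and Jchain at 1.98, 33.4, 464 and 707 and 504, 417, 653 and 492 CPM. Alox5 KO replicates 1 and 2 held little Jchain, while replicates 3 and 4 lay near the Il25 KO range. Mzb1, Derl3 and Txndc5 lay below the Il25 KO range in all 4 Alox5 KO libraries. Over the 28 B and plasma cell markers the summed level was 1081 to 3515 CPM in Alox5 KO and 2687 to 3613 CPM in Il25 KO. In sorted bulk samples, fewer cells of a type and less RNA per cell cannot be told apart, and the part of these markers in the result was not tested.

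Log2 fold changes over WT (edgeR, with adjusted p) are given for 8 genes, which were chosen after their values were seen and do not stand for all 46. For Lgals3, Alox5 KO had -0.84 (adjusted p = 0.9) and Il25 KO 5.82 (adjusted p = 2.21e-05). For Rpl26 the values were 0.13 (adjusted p = 0.874) in Alox5 KO and -2.89 (adjusted p = 1.01e-05) in Il25 KO. For Arg1 they were 0.21 (adjusted p = 0.705) and -4.22 (adjusted p = 4.61e-10). In these 3 genes Il25 KO was called against WT and Alox5 KO was not. For Wnt5b, Alox5 KO had 4.29 (adjusted p = 0.000136) and Il25 KO -1.57 (adjusted p = 0.801). For Ctse the values were 1.91 (adjusted p = 0.000156) in Alox5 KO and 0.50 (adjusted p = 0.614) in Il25 KO. For Rnpep they were -1.57 (adjusted p = 0.000156) and -0.17 (adjusted p = 0.868). In these 3 genes the call was in Alox5 KO. Derl3, with -4.07 (adjusted p = 0.00369) and -0.21 (adjusted p = 0.958), and Btg2, with -0.58 (adjusted p = 0.0189) and 0.15 (adjusted p = 0.785), were called against WT in Alox5 KO and not in Il25 KO.

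Start-site windows are shown for 3 protein-coding genes called in every fit that left out 1 library, 1 for each of the 3 larger patterns above. They are Lgals3 (WT and St2 KO nearer to Alox5 KO), Wnt5b (both nearer to Il25 KO) and AA467197 (WT nearer to Alox5 KO, St2 KO nearer to Il25 KO). None is shown for the pattern of Btg2 and Derl3. Each is the RefSeq window from 250 bases before to 50 after a start site on GRCm38.p6, and capitals mark TGANTCA, the AP-1 motif, which reads the same on both strands. The Lgals3 window is chr14:47373610-47373909 (plus strand), the Wnt5b window is chr6:119544298-119544597 (minus strand), the first of 3 for that gene, and the AA467197 window is chr2:122637637-122637936 (plus strand).
Lgals3: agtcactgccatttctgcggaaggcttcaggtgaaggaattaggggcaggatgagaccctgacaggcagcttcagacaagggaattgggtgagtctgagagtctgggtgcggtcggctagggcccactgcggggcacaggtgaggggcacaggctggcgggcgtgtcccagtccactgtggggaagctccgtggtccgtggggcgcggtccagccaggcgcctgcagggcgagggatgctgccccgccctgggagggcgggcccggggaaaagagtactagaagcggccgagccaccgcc
Wnt5b: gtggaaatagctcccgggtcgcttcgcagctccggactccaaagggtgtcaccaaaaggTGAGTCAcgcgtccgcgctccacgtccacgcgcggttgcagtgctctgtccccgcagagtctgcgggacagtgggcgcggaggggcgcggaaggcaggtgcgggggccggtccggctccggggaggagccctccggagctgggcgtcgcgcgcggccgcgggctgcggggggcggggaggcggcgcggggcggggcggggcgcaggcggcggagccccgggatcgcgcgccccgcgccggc
AA467197: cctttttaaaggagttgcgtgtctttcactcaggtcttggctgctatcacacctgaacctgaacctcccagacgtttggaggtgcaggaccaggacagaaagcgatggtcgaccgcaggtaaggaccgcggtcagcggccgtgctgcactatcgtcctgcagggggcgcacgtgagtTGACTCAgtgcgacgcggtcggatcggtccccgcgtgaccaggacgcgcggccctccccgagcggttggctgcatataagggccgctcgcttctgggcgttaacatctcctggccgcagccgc
The Wnt5b window held 1 match starting at base 60, the AA467197 window held 1 at base 178, and the Lgals3 window and the other 2 Wnt5b windows held none. Of the 46 called genes, 30 had a window in the RefSeq table, with 40 windows, and 3 of these (7.5%) held TGANTCA, against 4.68% of the 11035 windows of genes tested and 7.81% of all 32851 windows. A match describes these letters only.

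The share of genes called was larger close to the engineered loci than elsewhere, with no test of the difference. Within 20 Mb of Alox5, Il25, Arg1 or Il13, 16 of 812 genes tested (1.97%) were called, the 4 loci themselves not counted, against 28 of 10927 (0.256%) elsewhere. Around Il25 on chromosome 14, 6 of 100 genes within 5 Mb and 8 of 157 within 10 Mb (5.1%) were called, and no more were called out to 20 Mb. All 8 lay on the side of lower coordinates: Psmb5 at 0.318 Mb, Gm43305 at 0.639, Trdv4 at 0.859, Supt16 at 2.76, Rpgrip1 at 2.8, Gm26782 at 4.06, Lgals3 at 7.56 and Cnih1 at 8.15 Mb. All 8 belonged to the group of 23 genes for which WT and St2 KO lay nearer to Alox5 KO. The sources used here do not name the stem cell strain of each allele, so sequence carried along with an allele and an effect of the lost gene cannot be told apart at these loci.

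Trdv4, a variable segment of the T cell receptor delta locus (chr14:54074905-54075515), was at 144, 146, 125 and 144 CPM in Alox5 KO and 57.7, 71.5, 47 and 66.3 CPM in Il25 KO, with WT at 122 to 137 and St2 KO at 105 to 122 CPM. The 4 Il25 KO libraries lay below all 12 others, with a log2 fold change of 1.25 ± 0.15 (SE, edgeR adjusted p = 0.000139). Gm43305, a processed transcript in the same region, was at 25.7, 34.6, 5.50 and 15.3 CPM in Alox5 KO and 0.361, 0.768, 0 and 0 CPM in Il25 KO, and its 198 against 3 counts gave a depth-adjusted ratio of 71.8 (95% counting interval 24.2 to 351). Trdv4 is 1 gene segment of the receptor, and Cd3e, a subunit of the T cell receptor complex, was at 1.19 to 29.2 CPM in Alox5 KO and 15.1 to 22.5 CPM in Il25 KO, with a log2 fold change of -1.05 (95% interval -2.25 to 0.14). Psmb5, the chymotrypsin-like subunit of the proteasome, was at 66, 60.9, 56.6 and 61.3 CPM in Alox5 KO and 35.3, 32.3, 38.6 and 26.1 CPM in Il25 KO (log2 fold change 0.95 ± 0.19, edgeR adjusted p = 0.03). Cnih1, a cargo receptor of the early secretory pathway, was at 138, 145, 142 and 161 CPM in Alox5 KO and 93.4, 80.7, 84.8 and 77.2 CPM in Il25 KO (log2 fold change 0.74 ± 0.13, edgeR adjusted p = 0.0141). In both genes the Il25 KO libraries were the low ones, without overlap.

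Rpgrip1, a ciliary gene of photoreceptors, was at 30.4, 13.8, 20.4 and 18.3 CPM in Alox5 KO and 5.41, 0.384, 2.12 and 2.18 CPM in Il25 KO (log2 fold change 3.05 ± 0.53, edgeR adjusted p = 0.00764). Its 3' end overlaps that of Supt16, a subunit of the histone chaperone FACT on the opposite strand, which was lower in Alox5 KO at 172 to 219.8 against 236 to 274 CPM (log2 fold change -0.50 ± 0.10, edgeR adjusted p = 0.0352). The library kit does not mark the strand, so reads in the overlap cannot be assigned to one of the pair. The antisense gene Gm26782 was at 26.9, 23.6, 20.8 and 29.7 CPM in Alox5 KO and 8.29, 3.07, 1.70 and 1.81 CPM in Il25 KO. Of these calls near Il25, leaving out 1 library at a time removed Psmb5 in 12 of 16 fits, Supt16 in 11, Cnih1 in 3 and Rpgrip1 in 1 (without Alox5 KO replicate 1), with adjusted p-values of up to 0.181, 0.236, 0.0801 and 0.0683.

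Around Arg1 on chromosome 10, 3 of 31 genes within 5 Mb (9.68%) were called, and 4 of 130 within 20 Mb. H60b, its antisense neighbour Gm26740 and the pseudogene Hmgb1-ps8 overlap the stretch chr10:22187013-22302835, and Adat2 lies 11.4 Mb from Arg1. H60b is on the plus strand and overlaps the other 2, which are on the minus strand. As the kit does not mark the strand, reads in any sequence they share cannot be assigned to 1 of them. H60b and Adat2 were high, and Gm26740 and Hmgb1-ps8 low, in both genotypes that carry the Yarg allele. Gm26740 was at 111, 91.2, 107 and 114 CPM in Alox5 KO and 46.2, 58.8, 73.3 and 70.3 CPM in Il25 KO. Hmgb1-ps8 had 169 counts in Alox5 KO and 1 in Il25 KO, a depth-adjusted ratio of 184 (95% counting interval 32.6 to 7309). Both calls were lost without Alox5 KO replicate 1 or Il25 KO replicate 1, and that of Hmgb1-ps8 also without Il25 KO replicate 2, with adjusted p-values of up to 0.063 and 0.11. Around Alox5 on chromosome 6, Wnt5b, at 3.05 Mb, was the only 1 called of 77 genes within 5 Mb and of 183 within 20 Mb. Around Il13, whose reporter both genotypes carry, 0 of 94 genes within 5 Mb were called, and Aldh3a1, Flcn and Rpl26 were called at 6.17 to 15.3 Mb among 291 within 20 Mb.

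**Figure D3:**
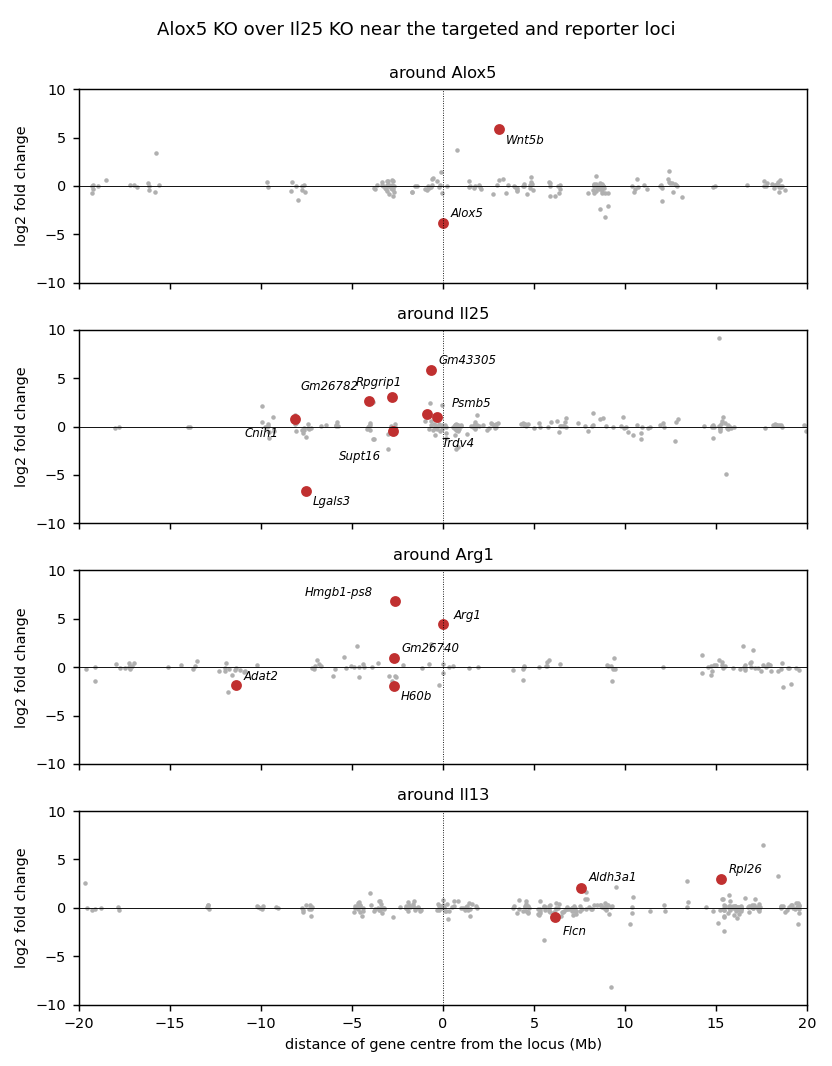
Log2 fold change, Alox5 KO over Il25 KO, of all genes tested within 20 Mb of Alox5, Il25, Arg1 and Il13, against the distance of the gene centre from the locus in Mb, with called genes in red and named. The 8 called genes around Il25 all lie at negative distances of 0.318 to 8.15 Mb, and the called genes nearest Arg1 lie 2.66 to 2.7 Mb from it.

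Chromosome 2 held 6 called genes of 889 tested (0.675%) and none of the engineered loci. Of these, 1700020I14Rik, Tmem87a, Snap23 and AA467197 lay between bases 119594297 and 122641191. All 4, with Cd44 at chr2:102811141-102901665, were in the group in which WT lay nearer to Alox5 KO and St2 KO nearer to Il25 KO. The non-coding RNA 1700020I14Rik was at 297, 285, 286 and 338 CPM in Alox5 KO and 160.1, 203, 175 and 200.5 CPM in Il25 KO (log2 fold change 0.70 ± 0.12, edgeR adjusted p = 0.00884), and Pcna-ps2, a copy of Pcna on chromosome 19, was at 1.58, 1.57, 0.786 and 1.98 and 20.2, 15.4, 20.8 and 10.2 CPM. The parent gene Pcna had 55.4 to 92 CPM in Alox5 KO and 46 to 65.7 CPM in Il25 KO. The call of 1700020I14Rik was lost without Alox5 KO replicate 1 or Il25 KO replicate 1, and that of Pcna-ps2 without Alox5 KO replicate 1 or 2, with adjusted p-values of up to 0.0672 and 0.0858. On chromosome 1, Ctse, Btg2 and Rnpep lay between bases 131638306 and 135284084.

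Genes of the leukotriene pathway other than Alox5 were not called. Over all genes tested 0.392% were called, so the absence of calls in this list or in those below is near that share. It is not a result about the genes listed. Of 17 listed genes, 11 were tested, Alox5 was the only 1 called, and the median log2 fold change was 0.00085. Pla2g4a, the cytosolic phospholipase that releases arachidonic acid, came closest. It was at 34.4, 16.1, 27.5 and 21.8 CPM in Alox5 KO and 4.33, 0.768, 2.12 and 6.16 CPM in Il25 KO, the groups did not overlap, and the log2 fold change was 3.02 ± 0.67 with an edgeR adjusted p of 0.0541. The receptors were expressed in both genotypes and overlapped. Cysltr1 was at 497 to 644 CPM in Alox5 KO and 479 to 526 CPM in Il25 KO (log2 fold change 0.20, 95% interval -0.02 to 0.42). Cysltr2 was at 217 to 277 and 189 to 252 CPM (log2 fold change 0.21, 95% interval -0.06 to 0.47), and Ltb4r1, a receptor of leukotriene B4, had a log2 fold change of -0.17 (95% interval -0.52 to 0.19). Of 8 prostaglandin genes tested, none was called and the median was 0.11; Ptgs2, the inducible cyclooxygenase, had a log2 fold change of -0.88 (95% interval -1.73 to -0.04).

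None of 18 genes of IL-25 and alarmin signalling was called, where 0.392% of all genes tested were. In this list 13 genes lay below 0, as did 5965 of all 11742 genes tested. The median log2 fold change was -0.07, against -0.0072 over all genes tested. The IL-25 receptor chain Il17rb had a log2 fold change of -0.07 with a 95% interval of -0.22 to 0.09. Il17ra, the second chain, had -0.46 (95% interval -0.96 to 0.04), and Il1rl1, the IL-33 receptor, had -0.52 (95% interval -1.07 to 0.04). Traf4, an adaptor of the IL-25 receptor, was at 37.9, 68, 64.1 and 61.3 CPM in Alox5 KO and 77.9, 179, 196 and 109 CPM in Il25 KO. Its libraries did not overlap, but with an edgeR adjusted p of 0.226 (log2 fold change -1.23 ± 0.35) it did not pass the threshold. Of 24 NF-kB genes tested none was called, 19 lay below 0 and the median was -0.21. The whole NF-kB list summed to 6442 to 8445 CPM in Alox5 KO and 7303 to 10270 CPM in Il25 KO, so the groups overlapped. Rela, at 119 to 277 and 253 to 377 CPM, had the smallest p of the list, with a log2 fold change of -0.67 and an edgeR adjusted p of 0.307. Of 19 genes of STAT5 signalling and its feedback by SOCS proteins, none was called, 13 lay below 0 and the median was -0.13.

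Of 29 genes of the ILC2 panel tested, Arg1 and Cd44 were called, and the median log2 fold change was -0.0034. Klrg1, an inhibitory receptor of mature ILC2, was at 559.7, 530.4, 474 and 510.4 CPM in Alox5 KO and 409, 449, 447 and 369.8 CPM in Il25 KO. The groups did not overlap, but the log2 fold change of 0.37 ± 0.11 had an edgeR adjusted p of 0.218. The neuromedin U receptor gene Nmur1 had a log2 fold change of 0.34 (95% interval 0.07 to 0.60), and Icos, a costimulatory receptor, of 0.09 (95% interval -0.21 to 0.40). None of 20 lineage transcription factors was called, and their median was -0.03. Gata3 had a log2 fold change of -0.04 (95% interval -0.24 to 0.17) and Rora of -0.04 (95% interval -0.40 to 0.31). Zbtb16, which encodes PLZF, a factor of ILC precursors, was at 1.98, 3.93, 2.36 and 0 CPM in Alox5 KO and 18.4, 18.4, 15.7 and 26.5 CPM in Il25 KO without overlap, with a log2 fold change of -2.88 ± 0.71 and an adjusted p of 0.092.

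**Figure D4:**
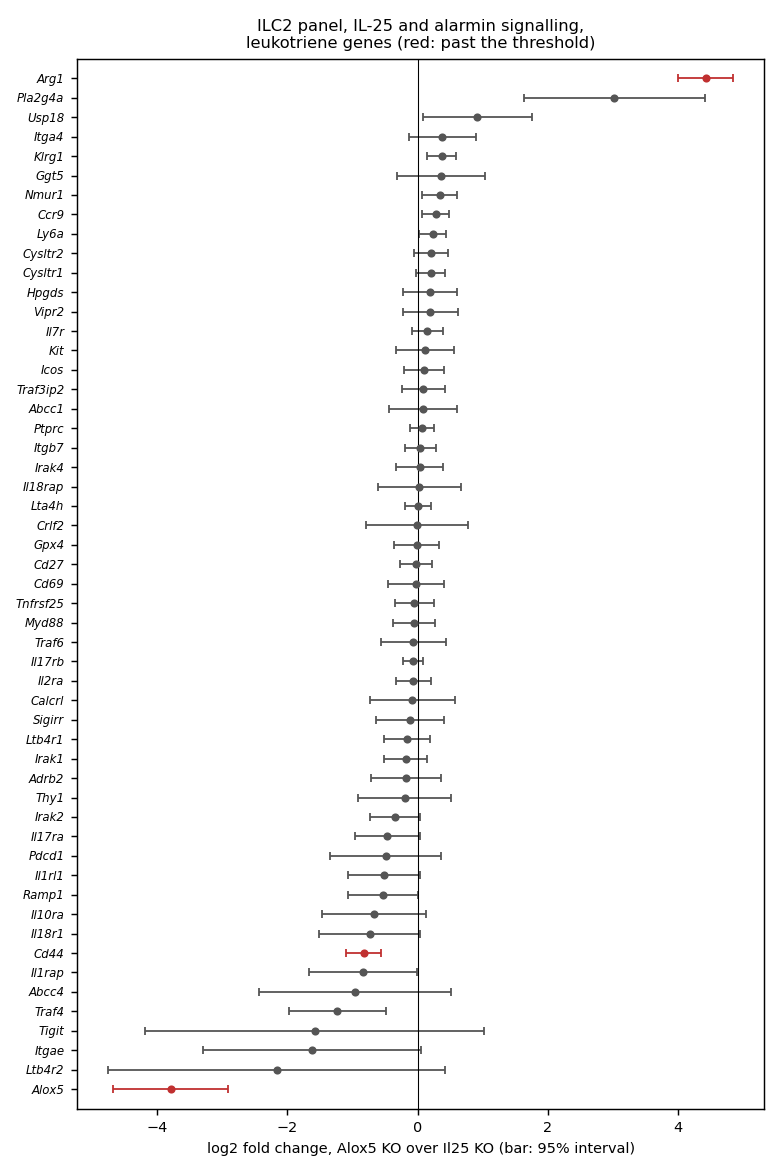
Log2 fold change, Alox5 KO over Il25 KO, with 95% intervals for the tested genes of the ILC2 panel, of IL-25 and alarmin signalling and of leukotriene synthesis and reception, with the 3 called genes in red. Arg1 lies at 4.43, Cd44 at -0.83 and Alox5 at -3.79, and the intervals of most others include 0.

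None of 18 type 2 effector genes tested was called, with a median of 0.03. Il5 was at 47.8, 60.5, 59.8 and 96.4 CPM in Alox5 KO and 18, 177, 56.4 and 41.3 CPM in Il25 KO, a spread so wide that its 95% interval ran from -2.12 to 1.37. Il4 was at 266, 282, 270.1 and 374 CPM and 243, 243, 247 and 236 CPM, without overlap, and had a log2 fold change of 0.27 ± 0.13 (edgeR adjusted p = 0.538). Areg, an epidermal growth factor family ligand, had a log2 fold change of 0.02 (95% interval -1.05 to 1.09). Tph1, the enzyme of peripheral serotonin synthesis, overlapped between 5.50 to 16.8 and 0 to 14.8 CPM, with a log2 fold change of 2.87 ± 0.85 and an adjusted p of 0.23. In the arginine and polyamine list Arg1 was the only 1 of 13 called and the median was -0.02; Smox, spermine oxidase, had 3.96 to 26.3 CPM in Alox5 KO and 1.45 to 4.66 CPM in Il25 KO and an adjusted p of 0.151.

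Among trafficking receptors and integrins, Cd44 was the only 1 of 22 called, and the median was 0.06. Cxcr4, the receptor of CXCL12, was at 54.9, 89.6, 78.6 and 49 CPM in Alox5 KO and 11.5, 24.6, 37.7 and 16.7 CPM in Il25 KO, with WT at 9.72 to 26.2 CPM. The groups did not overlap and Alox5 KO was the higher, with a log2 fold change of 1.74 ± 0.43 and an edgeR adjusted p of 0.101, short of the threshold. None of 13 lipid-sensing and orphan receptors was called (median -0.04); Gpr18 was at 96, 67.2, 103 and 57.4 CPM in Alox5 KO and 42.9, 37.7, 19.9 and 21.4 CPM in Il25 KO, and its adjusted p was 0.205. None of 17 circadian clock genes was called (median -0.11), although 4 of them (Per2, Per3, Tef and Ciart) were lower in Alox5 KO without overlap, where 5.57% of all genes tested did not overlap. Per3 was at 2.77, 2.75, 7.47 and 10.9 CPM in Alox5 KO and 27.4, 14.6, 33.5 and 43.9 CPM in Il25 KO (log2 fold change -2.30, adjusted p = 0.0897), Tef had 13 to 45.5 against 59.3 to 87.6 CPM, Per2 had 1.19 to 4.72 against 6.85 to 28.8 CPM and Ciart had 0 to 4.45 against 4.99 to 14.5 CPM. The sources used here do not give the hour at which each mouse was used.

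Among immediate early genes, which tissue digestion can induce, Btg2 was the only 1 of 33 called, 25 lay below 0 and the median was -0.08. Jun, a subunit of AP-1, was at 185 to 324 CPM in Alox5 KO and 288 to 358 CPM in Il25 KO, with a log2 fold change of -0.70 and an adjusted p of 0.376. No call was made among 14 heat shock chaperones (median -0.00074), 18 glycolysis genes (median -0.03), 39 cell cycle genes (median -0.15) or 19 genes of lipid uptake and storage (median -0.28, 14 below 0). Ifi44 was the only 1 of 33 interferon response genes called, 25 lay above 0 and the median was 0.22. Gbp2, an interferon-induced GTPase, had 266 to 306 CPM in Alox5 KO and 188 to 282 CPM in Il25 KO with an adjusted p of 0.076. In the MHC class I and proteasome list, 18 of 20 lay above 0, Psmb5 alone was called and the median was 0.10, and none of 10 MHC class II genes was called (median 0.38). All 7 mitochondrially encoded genes tested lay above 0 and none was called (median 0.24). The whole mitochondrial list summed to 2384 to 3214 CPM in Alox5 KO and 2068 to 2474 CPM in Il25 KO, so the groups overlapped. Over all genes tested, 5777 lay above 0 and 5965 below. Members of a list can vary together between libraries, so these counts of signs are not counts of separate observations.

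Markers of other cell types were counted in the same libraries. None of 9 genes of ILC1 and NK cells (median 0.32), 5 of ILC3 (median 0.12) or 16 T cell markers (median -0.14) was called. Summed levels of T cell markers were 1169 to 1459 CPM in Alox5 KO and 1096 to 1509 CPM in Il25 KO. Of 22 B and plasma cell markers tested, Cd79b was called higher and Derl3 lower in Alox5 KO, and the median was -0.93. Of 5 macrophage and dendritic markers tested, Pla2g7 was called higher and Lgals3 lower in Alox5 KO (median -1.54). None of 4 eosinophil, mast cell and basophil markers (median -0.33) or 4 epithelial and tuft cell markers (median -1.03) was called, Pecam1 was 1 of 5 stromal and endothelial markers tested (median 0.11), and no neutrophil marker was abundant enough to test. Epx, Mcpt1 and S100a8 had 0 counts in all 16 libraries, and Col1a1 had 0 in the 8 compared here. Epithelial and tuft cell markers summed to 392 CPM in Il25 KO replicate 1 and to at most 50.03 CPM in the other 3 Il25 KO libraries. The part of these markers in the calls was not tested.

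**Figure D5:**
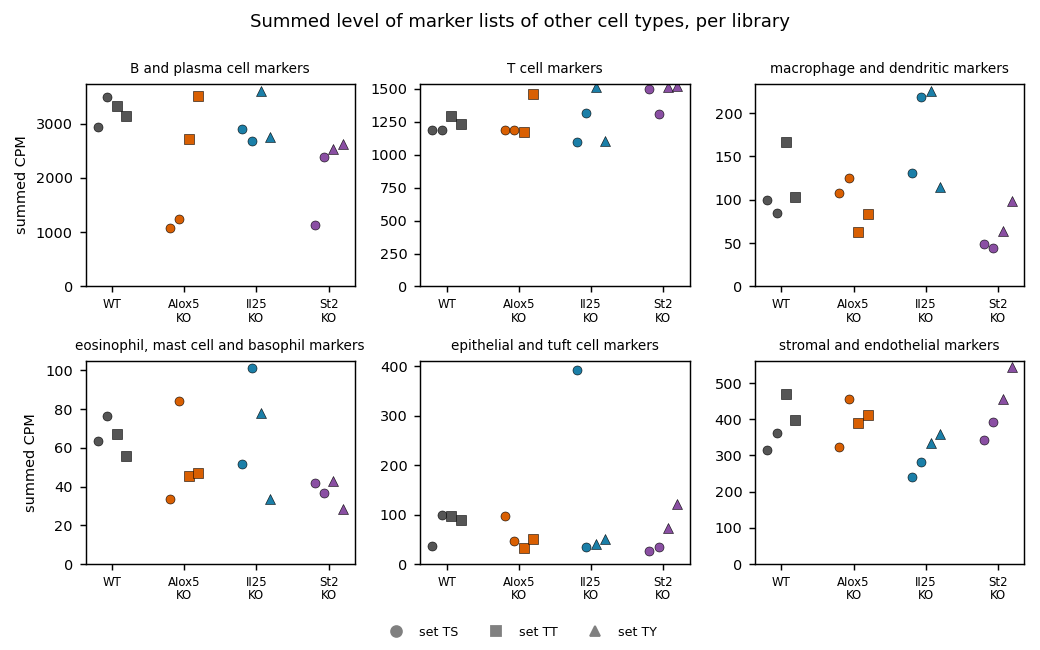
Summed CPM of 6 marker lists of other cell types in each of the 16 libraries, by genotype, with the sample-code set as the marker shape. Alox5 KO replicates 1 and 2 and St2 KO replicate 1 lie low for B and plasma cell markers, and Il25 KO replicate 1 lies high for epithelial markers.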

How the data were processed

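The deposited table holds whole-number read counts per gene for 16 libraries of duodenal ILC2, which the authors made with STAR 2.4.2a, HTSeq 0.4.1, Picard 1.134 and FastQC 0.11.3 on GRCm38, per the submitters' processing notes. Libraries were made with a kit that does not mark strand, from cells sorted by flow cytometry with a gate not given in the sources used here. Of 53471 rows, 6 with repeated identifiers were dropped, and rows without a gene symbol held 0.184% of counts. Gene positions came from GENCODE M21 (GRCm38), which held 99.8% of the identifiers.

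Counts were tested with edgeR 4.0.16 in R 4.3.3 (quasi-likelihood test, robust, TMM scaling, filterByExpr over the 4 genotypes), with genotype and sample-code set as terms over all 16 libraries, so that Alox5 KO and Il25 KO were joined through TS and through WT and St2 KO. Calls are at a Benjamini-Hochberg adjusted p under 0.05 over 11742 genes. CPM were TMM-scaled. The steps were tested on counts simulated from these libraries, in 3 runs with 200 genes changed in Alox5 KO. They recovered 49.3% of 2-fold and 80.3% of 4-fold changes, and 6.94% of the calls were false. A gene that was not called may therefore still differ. No 2 libraries agreed within counting noise (the lowest chi-square per degree of freedom between libraries was 5.119). No label states that libraries came from separate mice, and the p-values therefore cover only the spread among these samples, which may be technical.

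Named genes were the targeted and reporter genes, up to 15 called genes per direction by fold change with an established symbol and a mean log2 CPM of at least 3, up to 4 called members per list, and called genes within 20 Mb of an engineered locus. Gm3375, Gm15772, Pcna-ps2, 1700020I14Rik, Itpr3, Gimap4, Fyb and Snap23, and uncalled genes given as examples, were chosen after their values were seen. Members and gene lists were chosen with earlier results of these data known. Alternatives were other scaling, DESeq2 1.42.0, edgeR's older estimate of dispersion, no filter, no set term, the 8 libraries alone, TS alone, a replicate block, and leaving out libraries.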

Additional observations from a re-analysis of the deposited data

Results flagged for a closer look

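Of 108 groups of 4 libraries examined (each called gene and marker sum in each genotype), 16 held 1 library far from the other 3, by a gap to the nearest that took up more of the group's range than Dixon's 95% critical value. For normally distributed values, chance alone gives this in about 1 in 20 groups. Where 3 libraries were at 0, any count in the remaining library met the rule, so that rate does not hold there. In Alox5 KO, replicate 1 was high for Arg1 at 451.8 CPM (others 359.7 to 374.4) and for Gimap4 at 355.3 CPM (298.4 to 303.9), and low for Alox5 at 4.743 CPM (11.01 to 12.19). Alox5 KO replicate 2 was high for Gm3375 at 1.573 CPM (0.3932 to 0.4946). Alox5 KO replicate 3 was low for Trdv4 at 125.4 CPM (143.9 to 146.3) and for the summed ILC1 and NK genes at 1413 CPM (1739 to 1781). Alox5 KO replicate 4 was high for Ndufa4 at 193.4 CPM (126.2 to 136.8), for Gm15772 at 0.9891 CPM (0 in the others), for the summed ILC3 genes at 1210 CPM (1102 to 1117) and for the summed T cell markers at 1459 CPM (1169 to 1188).

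In Il25 KO, single libraries held the few counts of genes that were otherwise at 0. Replicate 4 held Wnt5b at 3.263 CPM, Alpk3 at 0.3625 CPM and Hmgb1-ps8 at 0.3625 CPM, replicate 2 held Slc52a3 at 3.842 CPM, and replicate 3 held Ifi44 at 1.271 CPM. Replicate 1 had summed epithelial and tuft cell markers of 392 CPM (34.58 to 50.03 in the others).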

How the results depend on the processing

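All 46 genes kept their sign in every alternative. The count of 46 calls (26 higher and 20 lower in Alox5 KO) became 105 (52 and 53) with DESeq2, 81 (31 and 50) without the set term, 14 (5 and 9) with the 8 libraries of the 2 genotypes and the set term, 12 (5 and 7) with the TS libraries of 4 genotypes, 12 (3 and 9) with those of 2 genotypes, and 2 (2 and 0) without Alox5 KO replicates 1 and 2 and St2 KO replicate 1, where 716 genes had an unadjusted p under 0.05. In that last fit Arg1 had a log2 fold change of 4.47 (edgeR adjusted p = 7.39e-07) and Rpl26 of 3.11 (adjusted p = 0.0116). Leaving out 1 library at a time gave 19 to 45 calls, 9 to 26 higher and 10 to 23 lower. Counts that moved by over 1.5 times were 19 (9 and 10) without Alox5 KO replicate 1, 13 lower without Alox5 KO replicate 2 and 14 higher without Il25 KO replicate 1. Other scaling, edgeR's older estimate, no filter and the 8 libraries without the set term gave 37 to 54. The replicate block gave 47 calls, 41 of them among the 46. Same-numbered libraries did not deviate together (correlations of -0.079 to 0.083), so the pairing by number has no basis in the data. The cause of these changes was not tested. With 2086864 to 3216937 counts a library, genes with few counts could not be compared. In replicates 3 and 4 the Il25 KO libraries differed from the Alox5 KO libraries in set and in sex.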
